A study of Homo sapiens with 12 samples.

Results

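The genes described here encode axon guidance ligands and receptors, and they were chosen by symbol: all genes that the array annotation names SEMA, ROBO or SLIT with a number, PLXN, EFNA, EFNB, EPHA, EPHB or UNC5, together with NTN1, NTN3, NTN4, NRP1, NRP2 and DCC. The rule gave 69 of the 18132 genes read by a probe set that names 1 gene. The UNC5 prefix also takes UNC50 and UNC5CL, which are not guidance receptors, so that 67 guidance genes remain, 34 ligands and 33 receptors. They comprise 20 semaphorins, 9 plexins and 2 neuropilins, 5 ephrin-A and 3 ephrin-B ligands with 9 EphA and 4 EphB receptors, 3 slits with 4 ROBO receptors, and 3 netrins with 5 netrin receptors.

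RNA came from Kelly and BE(2)-C, established human neuroblastoma lines with amplification of the oncogene MYCN. Cells of each line received 1 µM JQ1, which displaces BET bromodomain proteins from acetylated chromatin, or the solvent DMSO as control, for 24 h. Each of the 4 groups (Kelly with DMSO, Kelly with JQ1, BE(2)-C with DMSO, BE(2)-C with JQ1) was profiled on 3 Affymetrix PrimeView arrays, 12 in all. Nothing in the labels says that replicates were grown separately. The p-values therefore reflect only how these samples vary, which may be technical.

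Guidance cues steer growing axons and migrating cells, among them the neural crest cells from which the sympathetic lineage of neuroblastoma arises. Semaphorins signal through plexins, and most secreted class 3 semaphorins need a neuropilin as co-receptor. Ephrins are bound to the membrane and signal in both directions through Eph receptor tyrosine kinases, slits act through ROBO receptors, and netrins attract through DCC and repel through UNC5 receptors.

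All levels below are log2 intensities of the brightest probe set of a gene, listed in the order of replicates 1, 2 and 3, and all differences are on the log2 scale. Because probe sets differ in brightness, levels are compared between samples and never between genes. Over all probe sets the correlation r was 0.952 to 0.996 within groups and 0.880 to 0.956 between the lines. The median SE of a log2 fold change over the members was 0.21, and the number of arrays limits this precision. All 6 measured adrenergic neuroblastoma markers stood above the 90th percentile of 27 tissue-restricted genes, such as the T cell gene CD3E, in every group, and no endothelial, haematopoietic or epithelial marker did in any. Of 6 mesenchymal markers 3 were above it in each group: FN1, VIM and TWIST1 in Kelly, and VIM, TWIST1 and SNAI2 in BE(2)-C. Of 3 measured Schwann cell markers only SOX10 was above it, in Kelly with JQ1. That percentile served as a reference for dim probe sets and was 6.81 (DMSO) and 7.06 (JQ1) in Kelly and 6.79 (DMSO) and 6.92 (JQ1) in BE(2)-C. In at least 1 group 39 of the 69 members exceeded it, as did 9587 of all 18132 genes. With JQ1, 2 adrenergic markers passed as lower in Kelly (TH and DBH), and in BE(2)-C the same 2 were lower and PHOX2A and GATA3 higher. Their mean level per array ranged from 11.08 to 11.27 with DMSO and 10.73 to 10.80 with JQ1 in Kelly, and from 10.65 to 10.76 and 10.36 to 10.46 in BE(2)-C. Of the mesenchymal markers FN1 rose and VIM fell in Kelly and none passed in BE(2)-C; their mean level ranged from 7.82 to 7.88 and 7.70 to 7.91 in Kelly, and from 8.05 to 8.14 and 8.04 to 8.14 in BE(2)-C. Their part in the members' changes was not tested. In these bulk samples fewer cells with a transcript and less RNA per cell cannot be told apart.

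JQ1 changed 12 of the 69 members in Kelly (limma adjusted p under 0.05), 3 of them higher and 9 lower. Among all genes 6.5% passed there, 1.76% higher and 4.73% lower. In BE(2)-C 7 members passed, 2 higher and 5 lower, against 4.69% of all genes, 2.18% higher and 2.51% lower. PLXNA4, PLXNA2 and SEMA6D fell in both lines, and no member passed in opposite directions. The median log2 fold change over the members was 0.21 in Kelly (0.08 over all genes) and -0.04 in BE(2)-C (-0.01 over all genes). Of the 69 values 47 were above 0 in Kelly (10765 of all 18132 genes) and 27 in BE(2)-C (8777 of all 18132).

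Complete separation of the 3 JQ1 arrays from the 3 DMSO arrays was seen in 26 members in Kelly, 13 in each direction, against 23.7% of all genes. In BE(2)-C it was seen in 20 members, 6 higher and 14 lower, against 22.2%. Averaged over both lines, 4 members rose and 11 fell, where 11.1% of all genes passed, 4.02% higher and 7.04% lower. The largest averages were -2.004 for PLXNA4 (adjusted p = 1.52e-05), -1.25 for SEMA6D (adjusted p = 0.000707), -1.25 for PLXNA2 (adjusted p = 0.000159) and -1.06 for SEMA3E (adjusted p = 0.00242) among those that fell, and 1.04 for ROBO1 (adjusted p = 0.00205) among those that rose. Of the 15 only UNC5A passed in neither line alone.

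The signal of the hybridization controls, transcripts added to each labelled sample, was higher with JQ1 in all 3 same-numbered Kelly pairs, and its slope passed in 40 of the 69 members and in 53.4% of all genes. With this signal as a covariate all 12 Kelly calls and all 7 BE(2)-C calls were kept, and the totals rose to 18 and 12. The share of all genes that passed with this covariate is not given, so the rise is not read as a result about the members. Quantile normalization moved the lower share of all Kelly calls from 72.8% to 58.6%; 8 of the 12 members in Kelly passed under it too. The BE(2)-C total depended on single arrays: it was 3 without DMSO replicate 2 or 3, 2 without JQ1 replicate 1 or 2, and 4 without JQ1 replicate 3. The share of all genes that passed without these arrays is not given either, so these totals are not read as a result about the members.

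**Figure D1:**
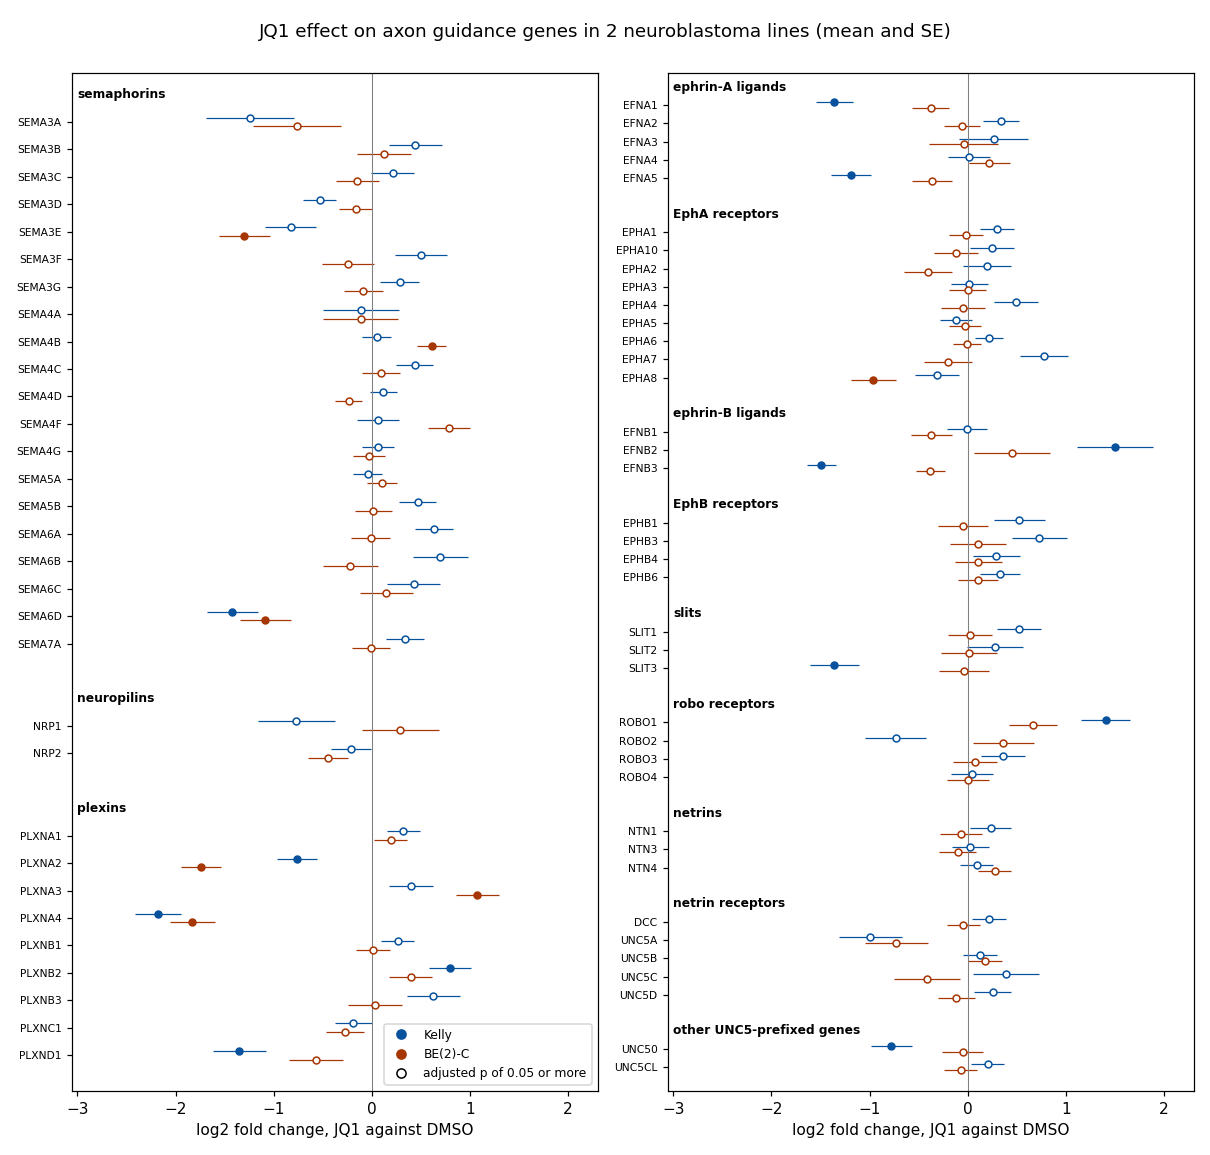
Log2 fold change of JQ1 against DMSO (x axis) for all 69 members by family, with Kelly in blue and BE(2)-C in orange. Points are differences of means of 3 arrays, bars are the SE of the fit, and filled points have an adjusted p under 0.05; PLXNA4 at -2.18 in Kelly is the lowest point and EFNB2 at 1.50 in Kelly the highest.

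Among the semaphorin ligands, 1 of 20 passed in Kelly (lower) and 3 of 20 in BE(2)-C (1 higher, 2 lower). The transmembrane ligand SEMA6D fell in both lines. It read 6.62, 6.60 and 5.92 in Kelly with DMSO and 5.26, 5.24 and 4.38 with JQ1, and 5.73, 6.14 and 6.22 in BE(2)-C with DMSO and 4.88, 4.95 and 5.001 with JQ1. No JQ1 array reached the DMSO range of its line, and all 4 group means were below the tissue-restricted reference. The decrease was 2.68-fold in Kelly (log2 fold change -1.42, SE 0.26, adjusted p = 0.0053). It was 2.12-fold in BE(2)-C (-1.09, SE 0.26, adjusted p = 0.0313). The BE(2)-C call was lost without DMSO replicate 2 or 3 or without any 1 of the 3 JQ1 arrays, and under quantile normalization (adjusted p over all alternatives 0.00239 to 0.218). Neither call held for the mean of its 4 probe sets, of which the other 3 did not pass in either line.

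SEMA3E, a secreted semaphorin that binds plexin D1 directly, fell in BE(2)-C. Its levels there were 5.49, 5.85 and 6.40 with DMSO and 4.40, 4.51 and 4.94 with JQ1, and in Kelly 5.18, 5.66 and 5.63 with DMSO and 4.37, 4.53 and 5.09 with JQ1. In both lines the groups did not overlap, and all means lay below the reference. The log2 fold change was -1.30 (SE 0.26, adjusted p = 0.0132) in BE(2)-C and -0.83 (SE 0.26, adjusted p = 0.0841) in Kelly. With the replicate number as a block the Kelly value passed too (adjusted p = 0.0213), while the BE(2)-C call was lost without DMSO replicate 3 or JQ1 replicate 1 or 2, and with the mean of its 3 probe sets (-0.59; adjusted p over all alternatives 0.00297 to 0.0922).

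SEMA4B, a transmembrane class 4 semaphorin, rose in BE(2)-C from 7.47, 7.61 and 7.40 with DMSO to 8.17, 8.18 and 7.95 with JQ1. The groups did not overlap, and the increase was 1.53-fold (0.61, SE 0.15, adjusted p = 0.0355); in Kelly the value was 0.05 (adjusted p = 0.852). This call was lost in 12 of 19 alternatives: with the block (adjusted p = 0.0583), the mean of its probe sets (0.41), the trend and robust prior and the arrays of BE(2)-C alone, without any 1 of the 6 BE(2)-C arrays, and without replicate 1 of either Kelly group (adjusted p over all alternatives 0.0037 to 0.162).

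SEMA3A, the classical repellent ligand of neuropilin 1, had -1.24 in Kelly (adjusted p = 0.127). All 4 of its group means lay below the reference. Its Kelly arrays read 6.23, 7.09 and 4.90 with DMSO and 5.28, 4.77 and 4.43 with JQ1, so that DMSO replicate 3 lay inside the JQ1 range. Within each same-numbered pair the JQ1 array was lower, and with the replicate block the value passed (adjusted p = 0.0459). SEMA3C, another secreted class 3 ligand, had 0.21 in Kelly (adjusted p = 0.568) in its brightest probe set, which stayed below the reference in every group. A second probe set of it, of nearly the same mean level, read 4.07, 4.58 and 4.82 with DMSO and 6.21, 6.05 and 6.81 with JQ1. That probe set rose by 1.87 without overlap (adjusted p = 0.00488 over all probe sets), and a further one rose by 0.61 (adjusted p = 0.041).

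The plexin receptors held the largest changes of all members. In Kelly 4 of 9 passed, 1 higher and 3 lower, and in BE(2)-C 3 of 9, 1 higher and 2 lower. PLXNA4, a receptor for class 3 semaphorins together with neuropilins and for SEMA6A, read 6.88, 7.17 and 7.82 in Kelly with DMSO and 5.09, 4.88 and 5.36 with JQ1. The BE(2)-C arrays read 9.63, 9.19 and 9.44 with DMSO and 7.78, 7.50 and 7.50 with JQ1. The JQ1 arrays of BE(2)-C thus stood at the level of the Kelly DMSO arrays, and the Kelly mean with JQ1 was below the reference. PLXNA4 fell 4.53-fold in Kelly (-2.18, SE 0.23, adjusted p = 0.000144). The BE(2)-C decrease was 3.55-fold (-1.83, SE 0.23, adjusted p = 0.000853), and the difference between the lines was 0.35 (SE 0.33, adjusted p = 0.651).

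PLXNA4 has 2 dimmer probe sets that did not pass. Their log2 fold changes were 0.43 and 0.01 in Kelly and -0.23 and -0.64 in BE(2)-C. With the mean of the 3 probe sets in place of the brightest the Kelly call was lost (adjusted p over all alternatives 1.06e-05 to 0.0769). With that mean the call in BE(2)-C held, at -0.90 (adjusted p = 0.012).

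PLXNA2, which binds class 6 semaphorins, read 8.82, 8.61 and 8.57 in BE(2)-C with DMSO and 6.76, 6.86 and 7.15 with JQ1. In Kelly it read 9.82, 9.59 and 9.89 with DMSO and 9.20, 9.29 and 8.53 with JQ1. Neither line showed overlap, and the gap was wider in BE(2)-C. PLXNA2 fell 3.34-fold in BE(2)-C (-1.74, SE 0.20, adjusted p = 0.000591). The Kelly decrease was 1.70-fold (-0.76, SE 0.20, adjusted p = 0.0449), and the difference of -0.98 (SE 0.29) did not pass (adjusted p = 0.214). Its second probe set also fell in BE(2)-C (-0.90, adjusted p = 0.0358) and had -0.49 in Kelly (adjusted p = 0.209). The BE(2)-C call held in all 19 alternatives. The Kelly call was lost in 14 of 19 alternatives: with the replicate block (adjusted p = 0.0671), the trend and robust prior and the Kelly arrays alone, under quantile normalization, and without any 1 array other than Kelly JQ1 replicate 2 or BE(2)-C DMSO replicate 1 (adjusted p over all alternatives 0.0143 to 0.153).

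PLXND1, the receptor of SEMA3E, fell in Kelly from 8.30, 7.94 and 8.64 with DMSO to 6.41, 6.95 and 7.47 with JQ1. Levels in BE(2)-C were 9.39, 8.73 and 8.78 with DMSO and 8.35, 8.28 and 8.59 with JQ1. The arrays of both lines separated by treatment, but only the Kelly change passed, at 2.55-fold (-1.35, SE 0.27, adjusted p = 0.0101), against -0.57 (SE 0.27, adjusted p = 0.366) in BE(2)-C. The difference between the lines, 0.78 (SE 0.39), did not pass (adjusted p = 0.463). A second probe set fell alike in Kelly (-1.43, adjusted p = 0.00394), and of all 19 alternatives quantile normalization alone ended the call (adjusted p = 0.0827, range over all alternatives 4.63e-05 to 0.0827).

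Members of the plexin family that rose were PLXNA3 and PLXNB2. PLXNA3, a plexin A that pairs with neuropilins and is read by 1 probe set, went in BE(2)-C from 7.29, 7.48 and 7.49 with DMSO to 8.42, 8.74 and 8.33 with JQ1. That was a rise of 2.11-fold (1.08, SE 0.22, adjusted p = 0.0142) without overlap; the Kelly value was 0.40 (adjusted p = 0.294), with overlapping arrays. It was lost without BE(2)-C DMSO replicate 2 or JQ1 replicate 1 or 2 (adjusted p over all alternatives 0.00146 to 0.0796). PLXNB2, a receptor of class 4 semaphorins, read 9.97, 9.73 and 10.43 in Kelly with DMSO and 10.88, 10.95 and 10.69 with JQ1. These groups did not overlap, but the rise of 1.74-fold (0.80, SE 0.22, adjusted p = 0.0487) was at the threshold. It was lost in 14 of 19 alternatives: with the block (adjusted p = 0.0669), the mean of its probe sets and the Kelly arrays alone, under quantile normalization and without any 1 array other than Kelly DMSO replicate 3 or BE(2)-C DMSO replicate 1 (adjusted p over all alternatives 0.0143 to 0.2).

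Neither neuropilin passed with JQ1 in its brightest probe set by limma. At an unadjusted p under 0.05 there were 0 of 2 in Kelly (4077 of all 18132 genes) and 1 of 2 in BE(2)-C (2767 of all 18132). NRP1 had -0.77 in Kelly (adjusted p = 0.265) and 0.29 in BE(2)-C (adjusted p = 0.986). Of its 6 probe sets 1 passed in Kelly, as higher by 0.55, opposite to the brightest. That dim probe set read 4.52, 4.13 and 4.33 with DMSO and 4.81, 4.89 and 4.95 with JQ1. NRP2, a co-receptor of class 3 semaphorins, has 9 probe sets, and the second brightest read 7.72, 7.99 and 7.42 in Kelly with DMSO and 6.15, 6.71 and 6.42 with JQ1. It fell by 1.28 there without overlap (adjusted p = 0.00413 over all probe sets), while the brightest had -0.21 (adjusted p = 0.548 over all probe sets). In BE(2)-C the same probe set had -0.83 (adjusted p = 0.0562). The fourth brightest pointed the other way in Kelly, from 5.47, 4.96 and 5.73 with DMSO to 6.25, 6.44 and 7.23 with JQ1. Its groups did not overlap either, but the value of 1.26 did not pass (adjusted p = 0.055 over all probe sets).

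**Figure D2:**
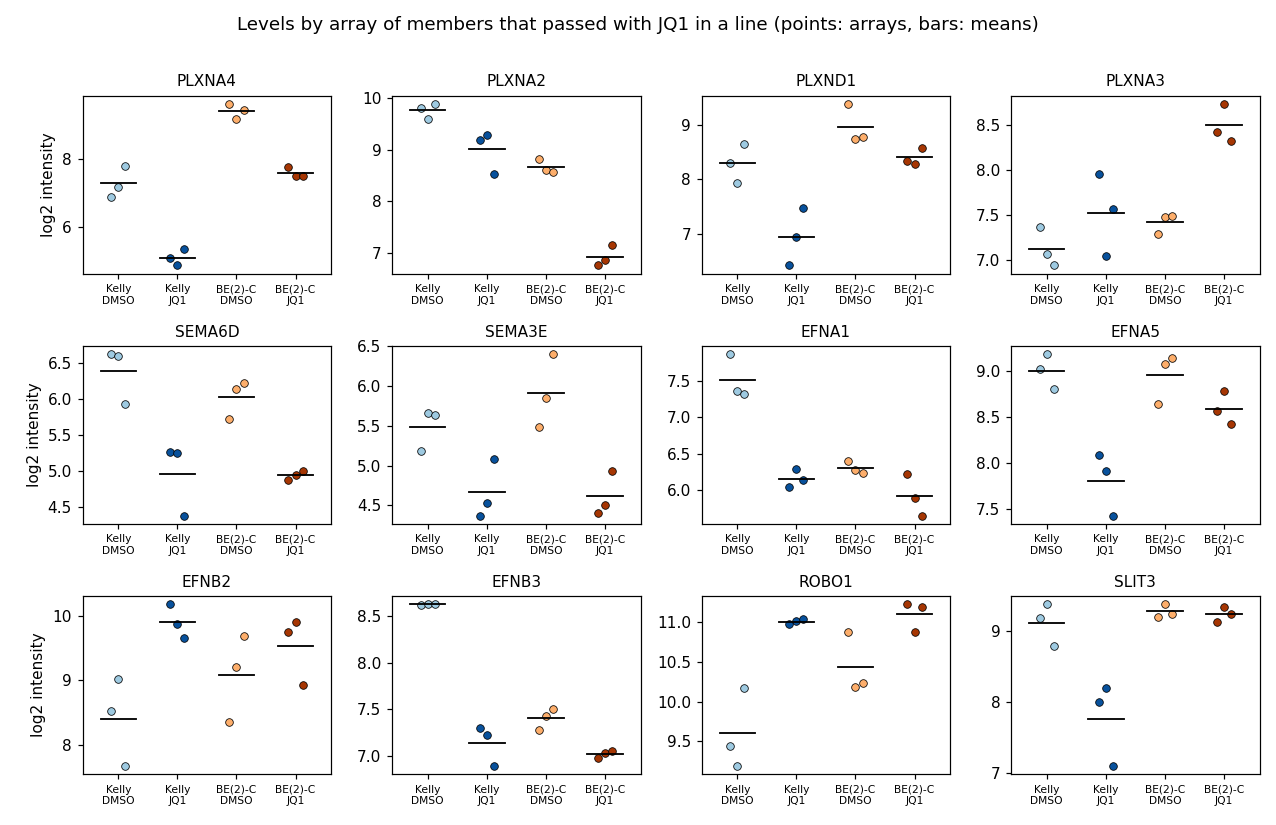
Log2 intensity (y axis) on each of the 12 arrays for 12 members that passed in at least 1 line, by group (x axis). Points are arrays and bars are means of 3 arrays. PLXNA4, PLXNA2, SEMA6D, SEMA3E, PLXND1, EFNA1, EFNB3 and ROBO1 separate by treatment in both lines. SLIT3, EFNA5 and EFNB2 separate only in Kelly and PLXNA3 only in BE(2)-C.

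MYC family proteins bind the E-box CACGTG, and since the series is directed at MYCN, promoters were searched for it. RefSeq promoters on GRCh38.p14, 250 bases before to 50 after the annotated start, matched 59 of the 69 members. CACGTG, which reads the same on both strands, occurred in 4 of the 59 (6.78%) and in 7.26% of all 35116 promoters. The variant CATGTG, searched on both strands, occurred in 6 of 59 (10.2%) against 11.1%. Of the 15 matched members that had passed in Kelly or BE(2)-C, 3 (20%) held CACGTG: SEMA6D, SEMA3E and EPHA8. No share among all genes that passed is given beside this, and the share of all promoters counts every promoter listed. SEMA3E and EPHA8 passed only in BE(2)-C, where their calls were lost in 4 and 9 of 19 alternatives. For the members these are matches of letters in 1 window per gene, and binding was not measured.

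The promoters of the 3 members that fell in both lines are printed so that the presence of the E-box in SEMA6D and its absence from these windows of PLXNA4 and PLXNA2 can be read. The capitals mark CACGTG, which starts 28 bases before the start site of SEMA6D. PLXNA4 is at chr7:132576421-132576720 on the minus strand, PLXNA2 at chr1:208244335-208244634 on the minus strand and SEMA6D at chr15:47183839-47184138 on the plus strand, each written 5′ to 3′ in the direction of the gene.
PLXNA4: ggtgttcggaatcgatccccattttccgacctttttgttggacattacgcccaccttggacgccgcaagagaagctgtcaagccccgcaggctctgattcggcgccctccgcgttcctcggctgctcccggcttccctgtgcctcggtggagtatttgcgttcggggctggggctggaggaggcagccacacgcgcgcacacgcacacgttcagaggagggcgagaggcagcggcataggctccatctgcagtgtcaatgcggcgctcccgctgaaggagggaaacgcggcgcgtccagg
PLXNA2: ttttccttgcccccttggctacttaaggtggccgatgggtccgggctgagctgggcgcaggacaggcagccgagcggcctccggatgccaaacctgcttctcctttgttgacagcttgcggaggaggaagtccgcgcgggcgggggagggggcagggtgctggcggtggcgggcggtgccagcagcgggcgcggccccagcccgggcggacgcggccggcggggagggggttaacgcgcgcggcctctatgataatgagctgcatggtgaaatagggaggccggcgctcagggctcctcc
SEMA6D: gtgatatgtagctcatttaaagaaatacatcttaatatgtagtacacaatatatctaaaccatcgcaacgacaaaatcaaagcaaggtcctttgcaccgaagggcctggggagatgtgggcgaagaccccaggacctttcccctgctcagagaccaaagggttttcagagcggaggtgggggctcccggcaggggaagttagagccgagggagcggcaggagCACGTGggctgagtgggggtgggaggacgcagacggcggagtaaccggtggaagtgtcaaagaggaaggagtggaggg

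For SEMA3E and EPHA8 the 60 bases around the E-box are given, with CACGTG in capitals. In SEMA3E, chr7:83649152-83649211 on the minus strand, it starts 45 bases before the start site, and in EPHA8, chr1:22563313-22563372 on the plus strand, 149 bases before it.
SEMA3E: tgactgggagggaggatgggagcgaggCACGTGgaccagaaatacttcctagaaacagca
EPHA8: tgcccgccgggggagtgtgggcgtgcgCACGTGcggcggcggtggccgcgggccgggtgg

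Among the ephrin-A ligands, which are anchored by a lipid and bind EphA receptors, 2 of 5 fell in Kelly and 0 of 5 passed in BE(2)-C by limma. In BE(2)-C it was 0 of 5 also at an unadjusted p under 0.05, against 2767 of all 18132 genes. EFNA1 read 7.87, 7.37 and 7.31 in Kelly with DMSO and 6.05, 6.29 and 6.14 with JQ1. BE(2)-C cells had 6.40, 6.28 and 6.23 with DMSO and 6.23, 5.89 and 5.65 with JQ1. Kelly with JQ1 thus lay within the range of BE(2)-C, where the groups were narrowly apart. Only the mean of Kelly with DMSO lay above the reference, so a further decrease in BE(2)-C may not be readable. EFNA1 fell 2.56-fold in Kelly (-1.36, SE 0.19, adjusted p = 0.00104), a call that held in all 19 alternatives, at -0.85 with the mean of its 2 probe sets, and had -0.38 in BE(2)-C (SE 0.19, adjusted p = 0.395).

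EFNA5 read 9.02, 9.18 and 8.80 in Kelly with DMSO and 8.08, 7.91 and 7.42 with JQ1. Its BE(2)-C arrays were 8.64, 9.07 and 9.14 with DMSO and 8.56, 8.77 and 8.42 with JQ1, with overlap. It fell 2.28-fold in Kelly (-1.19, SE 0.21, adjusted p = 0.00391) and had -0.36 in BE(2)-C (SE 0.21, adjusted p = 0.5). A second EFNA5 probe set of similar level had only -0.27 in Kelly (adjusted p = 0.398), and the mean of its 3 probe sets missed the threshold (adjusted p = 0.0529, range over all alternatives 0.000259 to 0.0529). The differences between the lines, 0.98 for EFNA1 (SE 0.27, adjusted p = 0.172) and 0.83 for EFNA5 (SE 0.29, adjusted p = 0.328), did not pass.

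The EphA receptors, kinases that take up these ligands, showed 0 of 9 passing in Kelly by limma and 1 of 9 in BE(2)-C. At an unadjusted p under 0.05 there were 2 of 9 in Kelly, against 4077 of all 18132 genes. In their brightest probe sets 8 of the 9 EphA receptors stayed below the reference in every group. EPHA8 read 7.59, 7.03 and 7.02 in BE(2)-C with DMSO and 6.34, 6.07 and 6.35 with JQ1, and 6.94, 6.77 and 7.48 in Kelly with DMSO and 6.43, 6.89 and 6.92 with JQ1. Only the BE(2)-C groups were apart. It fell there 1.95-fold (-0.96, SE 0.23, adjusted p = 0.0309), and the Kelly value was -0.31 (adjusted p = 0.415). The call was lost without any 1 of the 6 BE(2)-C arrays, without Kelly DMSO replicate 1, under quantile normalization, and with the mean of its 3 probe sets (-0.50; adjusted p over all alternatives 0.000227 to 0.156). EPHA7 had 0.78 in Kelly (adjusted p = 0.0814), and its second probe set rose by 1.55 (adjusted p = 0.0102 over all probe sets). That probe set read 6.77, 6.95 and 5.71 in Kelly with DMSO, 8.29, 8.24 and 7.54 with JQ1, and no more than 4.54 on any BE(2)-C array.

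The ephrin-B ligands span the membrane, and in Kelly they moved in both directions: EFNB2 rose, EFNB3 fell and EFNB1 had -0.01 (adjusted p = 0.982). None of the 3 passed in BE(2)-C by limma, and 1 did at an unadjusted p under 0.05, as did 2767 of all 18132 genes. EFNB2, the ligand of EPHB4 in arterial endothelium and of several EphB receptors in neurons, read 8.52, 9.03 and 7.67 in Kelly with DMSO and 10.18, 9.88 and 9.65 with JQ1. The BE(2)-C levels were 8.35, 9.21 and 9.68 with DMSO and 9.75, 9.91 and 8.93 with JQ1. The Kelly groups were separate and the BE(2)-C groups overlapped widely. EFNB2 rose 2.82-fold in Kelly (1.50, SE 0.39, adjusted p = 0.0371), against 0.45 in BE(2)-C (SE 0.39, adjusted p = 0.829).

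All 4 EFNB2 probe sets were higher with JQ1 in Kelly, by 0.64 to 1.67. The second brightest read 7.76, 7.65 and 7.77 with DMSO and 9.48, 9.59 and 9.12 with JQ1 in Kelly, and 8.32, 8.01 and 7.99 with DMSO and 8.18, 8.12 and 8.54 with JQ1 in BE(2)-C. It rose only in Kelly, and its difference between the lines, -1.49, passed over all probe sets (adjusted p = 0.0268). For the brightest probe set that difference was -1.05 (SE 0.55, adjusted p = 0.489). Its Kelly call was lost without Kelly DMSO replicate 1 or 3, any 1 of the 3 Kelly JQ1 arrays, BE(2)-C DMSO replicate 2 or BE(2)-C JQ1 replicate 1 (adjusted p over all alternatives 6.44e-07 to 0.0991).

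EFNB3, an ephrin-B of the nervous system known as a midline barrier to corticospinal axons, read 8.63 on each of the 3 Kelly DMSO arrays and 7.30, 7.22 and 6.89 with JQ1. BE(2)-C arrays read 7.27, 7.43 and 7.50 with DMSO and 6.97, 7.04 and 7.06 with JQ1. Both lines showed separate groups, and 2 of the 3 Kelly JQ1 arrays lay within the range of the BE(2)-C arrays. EFNB3 fell 2.81-fold in Kelly (-1.49, SE 0.15, adjusted p = 8.28e-05) and had -0.38 in BE(2)-C (SE 0.15, adjusted p = 0.2). The difference between the lines, 1.11 (SE 0.21, adjusted p = 0.0331), was the only one of the 69 members to pass, where 0.557% of all genes did.

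That difference was lost in 12 of 18 alternatives, among them the replicate block (adjusted p = 0.0817). Leaving out any 1 of the 6 BE(2)-C arrays, DMSO replicate 1 or 2 of Kelly, or JQ1 replicate 2 of Kelly also ended it (adjusted p over all alternatives 0.00537 to 0.69). Neither of the other 2 EFNB3 probe sets passed in Kelly. With the mean of all 3 the Kelly value was -0.34 and no longer passed (adjusted p = 0.141, range over all alternatives 1.2e-05 to 0.141), and the difference was 0.15. The EphB receptors, which bind ephrin-B ligands, gave 0 of 4 passing in either line by limma. At an unadjusted p under 0.05 there was 1 in Kelly (4077 of all 18132 genes) and 0 in BE(2)-C (2767 of all 18132). All 4 had values above 0 in Kelly (0.29 to 0.73), as had 10765 of all 18132 genes.

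Of the slit ligands and their ROBO receptors, 1 of 3 slits fell and 1 of 4 ROBO receptors rose in Kelly, and none passed in BE(2)-C. SLIT3, a secreted slit read by 1 probe set, had 9.19, 9.38 and 8.80 in Kelly with DMSO and 8.003, 8.20 and 7.10 with JQ1. The levels in BE(2)-C were 9.21, 9.39 and 9.25 with DMSO and 9.13, 9.35 and 9.25 with JQ1. Kelly DMSO and all BE(2)-C arrays thus lay in 1 range, from 8.80 to 9.39, and the Kelly JQ1 arrays below it. SLIT3 fell 2.56-fold in Kelly (-1.36, SE 0.25, adjusted p = 0.00577) in all 19 alternatives, and the BE(2)-C value was -0.04 (SE 0.25, adjusted p = 1). The difference between the lines of 1.32 (SE 0.35) did not pass (adjusted p = 0.16).

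ROBO1, the widely expressed slit receptor that mediates repulsion, read 9.45, 9.19 and 10.16 in Kelly with DMSO and 10.97, 11.01 and 11.04 with JQ1. In BE(2)-C it read 10.87, 10.18 and 10.23 with DMSO and 11.22, 10.88 and 11.19 with JQ1. With JQ1 both lines stood between 10.88 and 11.22, and the groups of each line were apart, narrowly so in BE(2)-C. ROBO1 rose 2.65-fold in Kelly (1.40, SE 0.25, adjusted p = 0.00456), a call that held in all 19 alternatives, and had 0.67 in BE(2)-C (SE 0.25, adjusted p = 0.181). With the mean of its 3 probe sets the Kelly rise was 0.61, and its other 2 probe sets did not pass. The difference between the lines of -0.74 (SE 0.35) did not pass (adjusted p = 0.452). ROBO2, a related slit receptor, had -0.73 in Kelly (SE 0.31, adjusted p = 0.19) in its brightest probe set, where the groups did not overlap. Its other 2 probe sets fell there by 0.81 and 0.84 (adjusted p = 0.0175 and 0.0213 over all probe sets).

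Netrins and their receptors gave 0 of 3 and 0 of 5 passing in either line by limma. At an unadjusted p under 0.05 there were 0 netrins in either line, and 1 receptor in each. Among all 18132 genes there were 4077 in Kelly and 2767 in BE(2)-C. NTN1, the founding netrin, had 0.23 in Kelly (adjusted p = 0.509), and NTN4 had 0.27 in BE(2)-C (adjusted p = 0.567). NTN1, NTN4, DCC and UNC5D stayed below the reference in every group, so a change of these genes may not be detectable here. UNC5A, a repulsive netrin receptor read by 1 probe set, read 8.004, 7.77 and 9.24 in Kelly with DMSO and 7.13, 7.49 and 7.43 with JQ1, and 8.23, 7.71 and 7.65 in BE(2)-C with DMSO and 6.98, 7.03 and 7.39 with JQ1. Groups were apart in both lines, and UNC5A fell averaged over the lines by 0.86 (SE 0.23, adjusted p = 0.0263).

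UNC50, which the prefix takes and which is no netrin receptor, fell in Kelly by 0.78 (SE 0.21, adjusted p = 0.0438). The call was lost in 13 of 19 alternatives: with the block (adjusted p = 0.0628), the mean of its probe sets, the trend and robust prior and the Kelly arrays alone, under quantile normalization, and without Kelly DMSO replicate 1 or 2, any 1 of the Kelly JQ1 arrays, BE(2)-C DMSO replicate 2 or BE(2)-C JQ1 replicate 1 or 2 (adjusted p over all alternatives 0.02 to 0.197). UNC5CL had 0.20 in Kelly and -0.07 in BE(2)-C, neither of which passed.

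**Figure D3:**
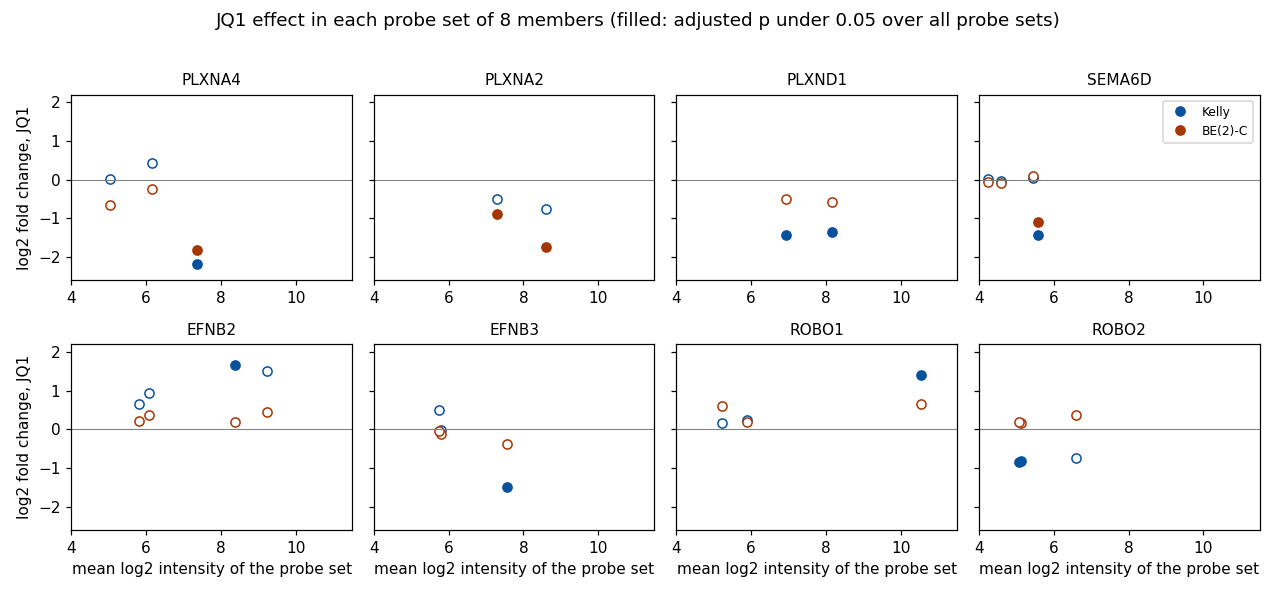
Log2 fold change with JQ1 (y axis) against the mean log2 intensity (x axis) of every probe set of 8 members, with Kelly in blue and BE(2)-C in orange. Filled points pass after adjustment over all probe sets, a wider family of tests than the 18132 genes, so that EFNB2 and PLXNA2 in Kelly pass by gene but have an open point for their brightest probe set here; the 2 probe sets of PLXND1 lie together, and those of PLXNA4, SEMA6D and EFNB3 do not.

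The lines themselves differed before treatment. Under DMSO 15 of the 69 members passed between BE(2)-C and Kelly, 4 higher and 11 lower in BE(2)-C, where 15.1% of all genes passed, 7.2% higher and 7.89% lower. This comparison uses the same DMSO arrays as the JQ1 comparisons. The 3' minus 5' difference of ACTB, a measure of RNA integrity, was 1.67 ± 0.50 (SD, n = 3) in these Kelly arrays and 0.91 ± 0.31 (SD, n = 3) in these BE(2)-C arrays. Of the 6 measured adrenergic markers 3 passed as lower in BE(2)-C (GATA3, ISL1 and DBH) and 0 as higher. Of the mesenchymal markers 2 were higher in BE(2)-C (SNAI2 8.05-fold and VIM 3.07-fold) and 2 lower (FN1 6.87-fold and TWIST1 1.44-fold). The Schwann cell marker S100B, below the reference in every group, was higher there by 1.67. The part of RNA integrity and of these markers in the line differences was not tested. PLXNA4 was 4.38-fold higher in BE(2)-C (2.13, SE 0.23, adjusted p = 2.95e-05), from the arrays given above. NRP1, the co-receptor of SEMA3A, read 8.06, 8.63 and 6.91 in Kelly with DMSO and 9.15, 10.06 and 10.00 in BE(2)-C. No Kelly array reached the BE(2)-C range, and NRP1 was 3.65-fold higher in BE(2)-C (1.87, SE 0.39, adjusted p = 0.00543), as it was in 4 of its 6 probe sets.

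ROBO2 and SLIT2, a slit receptor and a slit, were both lower in BE(2)-C. ROBO2 read 7.56, 7.92 and 7.98 in Kelly with DMSO and 4.76, 5.86 and 6.10 in BE(2)-C. SLIT2 read 7.45, 8.17 and 7.16 in Kelly and 6.58, 5.63 and 5.71 in BE(2)-C. All BE(2)-C arrays of both genes lay below all Kelly arrays and below the reference. ROBO2 was 4.74-fold lower (-2.24, SE 0.31, adjusted p = 0.000251) and lower in all 3 probe sets, and SLIT2 was 3.07-fold lower (-1.62, SE 0.29, adjusted p = 0.00165). ROBO1 went the other way (0.83, SE 0.25, adjusted p = 0.0398), a call that was lost under quantile normalization and without any 1 array other than replicate 3 of either Kelly group (adjusted p over all alternatives 0.000224 to 0.153).

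Among the ephrins and Eph receptors, EFNA4, a ligand of several EphA receptors, read 6.23, 6.36 and 7.10 in Kelly with DMSO and 4.84, 4.95 and 4.94 in BE(2)-C. It was 3.14-fold lower in BE(2)-C (-1.65, SE 0.21, adjusted p = 0.000138), and all 4 of its group means lay below the reference. EPHB3, read by 1 probe set, had 8.81, 8.24 and 9.12 in Kelly and 8.08, 7.02 and 7.07 in BE(2)-C, 2.52-fold lower (-1.33, SE 0.28, adjusted p = 0.00548). Neither gene overlapped between the lines. EFNB3 (-1.23, SE 0.15, adjusted p = 7.1e-05) and EFNA1 (-1.21, SE 0.19, adjusted p = 0.000659) were lower as well, both genes that fell in Kelly with JQ1. The semaphorin SEMA6A (-0.96, adjusted p = 0.00437, lost with the mean of its probe sets) and its receptor PLXNA2 (-1.10, adjusted p = 0.00233) were also lower in BE(2)-C.

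UNC5C, a repulsive netrin receptor, had the largest line difference of a member, and its 2 probe sets went in opposite directions. The brighter read 8.91, 8.97 and 8.66 in Kelly with DMSO and 6.46, 5.42 and 5.23 in BE(2)-C, 8.84-fold lower in BE(2)-C (-3.14, SE 0.34, adjusted p = 2.79e-05). The other read 6.31, 6.45 and 6.55 in Kelly and 7.25, 7.46 and 7.67 in BE(2)-C, higher by 1.03 (adjusted p = 0.00327 over all probe sets). Both sets separated the lines fully, so the direction of the gene as a whole is not settled by these data. The remaining passing members were SEMA4F (-0.80), SEMA3D (-0.74) and UNC5B (0.70).

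**Figure D4:**
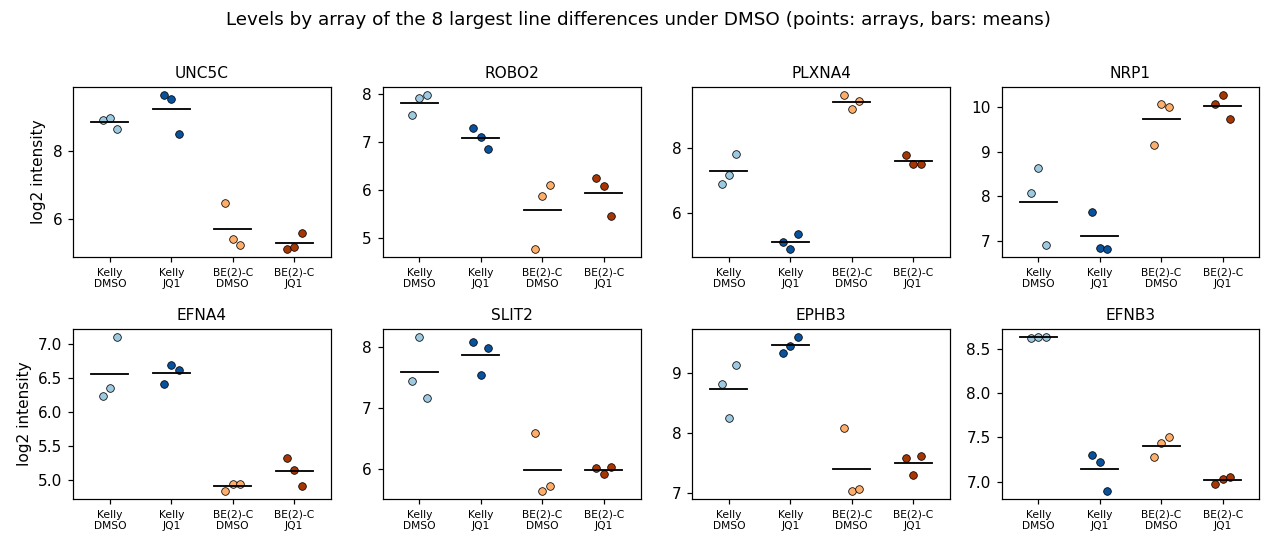
Log2 intensity (y axis) on each array, by group (x axis), for the 8 members with the largest differences between the lines under DMSO. Points are arrays and bars are means of 3 arrays; UNC5C, ROBO2, EFNA4, SLIT2, EPHB3 and EFNB3 are lower and PLXNA4 and NRP1 higher in BE(2)-C with DMSO than in Kelly with DMSO.

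Of 72 further genes of guidance signalling (co-receptors, matrix partners and cytoplasmic effectors) 67 were measured. In Kelly 4 of the 67 passed (5.97%), 3 higher and 1 lower, and in BE(2)-C 3 (4.48%), 1 higher and 2 lower, shares near those of all genes. ABLIM1, an actin-binding protein of the netrin pathway, fell in both lines, by 1.45 in Kelly (adjusted p = 0.0129) and 1.33 in BE(2)-C (adjusted p = 0.0266). FLRT3, an adhesion protein that binds UNC5 and ROBO receptors, rose in both, by 0.92 in Kelly (adjusted p = 0.00658) and 0.89 in BE(2)-C (adjusted p = 0.0109). RGMA, a ligand of neogenin, fell in BE(2)-C by 1.47 (adjusted p = 0.000833) and had -0.45 in Kelly (adjusted p = 0.168). L1CAM, an adhesion partner of neuropilin 1, rose by 0.89 (adjusted p = 0.0234) and DPYSL4, a collapsin response mediator, by 0.58 (adjusted p = 0.0487) in Kelly. The Kelly total was 1 without DMSO replicate 1 or 2 and 10 without DMSO replicate 3. How many of all genes passed without these arrays is not given, so this is not read as a result about the pathway genes.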

How the data were processed

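RNA of 12 samples was read on Affymetrix PrimeView arrays. RMA was applied by the authors, per the submitters' processing notes, which give no version of it. The deposited values are linear intensity, from 8.68 to 34820 with array medians of 61.4 to 67.3. Tests planned on a log2 scale were run on the log2 of each deposited intensity, with an offset of 0. The table held 49395 probe sets, of which 44994 named 1 gene in the platform annotation, and each gene was read from its brightest probe set. The 69 members had 202 probe sets, and 57 members had more than 1. No genome build is given for the array values.

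Fits used limma 3.58.1 (lmFit, contrasts.fit, eBayes, R 4.3.3) with 4 group means over all 12 arrays and 8 residual degrees of freedom. Two-sided p-values were adjusted by Benjamini-Hochberg over 18132 genes (threshold 0.05). The test was also run on simulated data with independent noise for each gene and array. That setting has no signal shared by the genes of an array, so it cannot show the error rates in these data. The fit by probe set was adjusted over all probe sets naming 1 gene. The members and lists were chosen with earlier results of these data known. Values by array are given for members that passed in a line (up to 12 each), in the average (up to 8), in the difference, and between lines (up to 12), and values for the 2 largest of families without a call. UNC5A, SEMA3A, SEMA3C, NRP1, NRP2, EPHA7, ROBO2 and UNC5CL with JQ1 were added after their values were seen, as were the remaining passing members between the lines.

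Residuals of same-numbered DMSO and JQ1 arrays correlated across genes at 0.434, 0.228 and 0.515 in Kelly and at -0.0707, 0.527 and -0.744 in BE(2)-C. Arrays of unlike number also correlated, such as Kelly DMSO replicate 2 with JQ1 replicate 1 (0.463). In BE(2)-C, DMSO replicate 3 correlated with JQ1 replicate 2 at 0.786. These values do not settle whether the numbers pair samples, and the labels do not say. The main fit therefore had no block, and the block was run as an alternative. The alternatives were averaging the probe sets of each gene, a trend and robust prior, quantile normalization, genes with a mean of at least 5, the control signal (9 probe sets) as covariate, the replicate block, the arrays of 1 line, and leaving out each of 12 arrays. Promoter windows came from RefSeq on GRCh38.p14.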

Additional observations from a re-analysis of the deposited data

Results flagged for a closer look

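The JQ1 effect differed between the lines in 1 member by gene: EFNB3 fell by 1.49 on the log2 scale in Kelly and had -0.38 in BE(2)-C, a difference (BE(2)-C minus Kelly) of 1.11 (limma adjusted p = 0.0331 over 18132 genes). It was lost in 12 of 18 alternatives, among them the replicate block (adjusted p = 0.0817) and the mean of its probe sets (0.15, adjusted p = 0.69). The second brightest probe set of EFNB2 went the opposite way, with a difference of -1.49 (adjusted p = 0.0268 over all probe sets). A cause was not tested for either.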

How the results depend on the processing

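Over 7 counts of passing genes, 96 of 129 recomputed counts stayed within 1.5 times the reported one. When the probe sets of each gene were averaged, the BE(2)-C members went from 7 to 4, the difference between the lines from 1 to 0 and the pathway genes in Kelly from 4 to 2. With the control signal as covariate the counts were 12 members in BE(2)-C, 5 in the difference, 23 between the lines, and 9 pathway genes in Kelly and 8 in BE(2)-C. For none of the recomputed counts in this paragraph is the share of all genes in the same fit given. A changed count is therefore not read as a result about the members or pathway genes. Quantile normalization gave 7 pathway genes in Kelly, and the Kelly arrays alone gave 2. The difference also had 0 members with the trend and robust prior and 0 with the replicate block. In the reported fit 13 of the 69 members had a difference at an unadjusted p under 0.05, against 2049 of all 18132 genes. Leaving out 1 array gave 8 to 15 members in Kelly, 2 to 9 in BE(2)-C, 0 to 2 in the difference, and 1 to 10 and 1 to 5 pathway genes. The replicate block gave 11 members in Kelly, 9 of them shared with the 12 reported, and 7 in BE(2)-C, 6 shared; no block could be fitted between the lines. Of 44 named log2 fold changes, 21 kept call and direction in all alternatives, 21 lost a call in at least 1, and 2 that had not passed changed sign. NTN4 in Kelly, 0.09, was -0.017 under quantile normalization and -0.025 with the covariate. NTN3 in BE(2)-C, -0.10, ranged from -0.22 to 0.042 with 1 array left out and was above 0 without DMSO replicate 1 and without JQ1 replicate 2. The cause of these shifts was not tested. The brightest probe sets of 30 members were below the tissue-restricted reference in every group, where small changes may not be readable.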
